A study of Mus musculus with 54 samples.

Results

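The genes described here are those of mouse chromosome 6, the chromosome that carries Ezh2, in mouse embryonic stem cells. They were taken from the deposited count table, with identifiers placed on GRCm38 through GENCODE M21. A gene was a member if it had at least 20 counts summed over the undifferentiated libraries of the parental and Ezh2-heterozygote lines. Ezh2 itself, the Hoxa genes, Nanog, Gata2, Vwf and Ccnd2 were left out. Of 55401 genes in the table, 3120 lay on chromosome 6. By name, 19 of these were left out, 2251 fell under the floor and 850 were members, 637 of them protein-coding and 67 processed pseudogenes. Calcr, Gm13717 and Gm43442 had 20 counts and lay just inside the floor, and Gm5874, Gm25580 and Tmem213 had 19 and lay just outside it. The chromosome was chosen because its genes had already been seen to be higher in the heterozygote than in the parental line in these data. Values of that contrast are therefore given as a description and support nothing.

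The study measured polyadenylated RNA in lines of mouse embryonic stem cells, of which 8 were analysed here and the Y728 line was not. Each line was taken in the undifferentiated state (mESC) and in a differentiated state (ATRA). The latter was reached by a short exposure to all-trans retinoic acid without 2i/LIF. Each line had 3 libraries per state. The lines were the parental cells, whose count columns carry the name flfl, cells with 1 floxed and 1 deleted Ezh2 allele (het), and het cells expressing EZH2-WT or the variant A677T, R679C, K634E, K563E or A733T. The last 6 are called derived lines below and all carry the het genotype. The design text names Weaver syndrome variants and 1 growth restriction-associated EZH2, and the labels do not say which line holds the latter. Nothing in the labels says whether a line is 1 clone, whether replicates are separate cultures, or what drives the added EZH2. The p-values therefore measure the spread between these libraries, which may be technical.

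Libraries held 15361598 to 29614420 assigned reads in mESC and 15612700 to 31338825 after ATRA. Summed over the 7 stem cell markers (Pou5f1, Sox2, Nanog, Esrrb, Klf4, Zfp42, Tfcp2l1), levels were 4020 to 5110 CPM in mESC libraries and 541 to 913 CPM after ATRA, where CPM is the count scaled to the library's TMM-normalised size. The 6 fibroblast markers, looked at because feeder cells could be present, summed to at most 4.99 CPM in any mESC library. Ezh2, chr6:47530139-47595341 on the minus strand, was at 287, 293 and 292 CPM in the parental mESC libraries and at 274, 269 and 264 CPM in het. The log2 difference was -0.11 (adjusted p = 0.56). After ATRA the difference was -0.23 (adjusted p = 0.0109). Ezh2 counts were above the parental range in all 18 derived mESC libraries, at 336 to 611 CPM. Values in brackets here and below are from edgeR's quasi-likelihood test, adjusted over all tested genes by Benjamini-Hochberg. Counts per gene do not separate the deleted allele or the added EZH2 from the remaining allele. Among the members described below, Cul1, Zfp775, Igf2bp3, Gadd45a, Akr1b3, Mest, Evx1, Etv6, Irf5, Rassf4, Pdzrn3, Ccser1, Ipo8 and Gapdh overlap a gene on the other strand in GENCODE M21. The strand setting of the counting is not given in the sources used here, so reads of such pairs cannot be told apart.

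EZH2 is the catalytic subunit of Polycomb repressive complex 2, which methylates lysine 27 of histone H3 and keeps developmental regulators with CG-rich promoters silent in stem cells. Chromosome 6 carries, beside Ezh2, a run of zinc finger genes just distal to it, the Hoxa cluster with Evx1, the imprinted genes Peg10 and Mest, the glycolytic gene Gapdh and a group of early embryonic genes around Gdf3 and Dppa3. Retinoic acid drives stem cells out of the undifferentiated state and activates Hox genes.

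Promoters of 4 of the members described below are printed. Zfp775 and Gpnmb lie within 2 Mb of Ezh2 and were lower in mESC het, and Cmas and Halr1 were higher in het in both states. Each sequence is the 250 bases before the gene's RefSeq start on the plus strand, on GRCm38.p6, with CG in capitals. The GENCODE start lies 56 bases further on for Zfp775, 28 for Gpnmb and 0 for Cmas and Halr1. CG reads the same on both strands. Of 65 named genes near Ezh2, from the het comparisons or from the gene lists, 35 had a promoter within 100 bases of the GENCODE start in the RefSeq table.
Zfp775 promoter, chr6:48601757-48602006: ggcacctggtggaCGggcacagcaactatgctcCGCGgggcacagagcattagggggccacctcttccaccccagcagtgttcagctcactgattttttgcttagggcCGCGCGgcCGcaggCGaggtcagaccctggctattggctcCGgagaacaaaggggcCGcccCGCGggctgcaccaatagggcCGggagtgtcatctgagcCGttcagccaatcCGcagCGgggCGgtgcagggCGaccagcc
Gpnmb promoter, chr6:49036268-49036517: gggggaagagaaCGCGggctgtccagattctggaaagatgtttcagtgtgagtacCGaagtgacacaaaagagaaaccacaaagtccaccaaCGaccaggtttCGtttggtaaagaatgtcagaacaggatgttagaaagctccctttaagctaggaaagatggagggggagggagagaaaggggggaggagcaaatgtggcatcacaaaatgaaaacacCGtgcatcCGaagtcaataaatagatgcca
Cmas promoter, chr6:142756436-142756685: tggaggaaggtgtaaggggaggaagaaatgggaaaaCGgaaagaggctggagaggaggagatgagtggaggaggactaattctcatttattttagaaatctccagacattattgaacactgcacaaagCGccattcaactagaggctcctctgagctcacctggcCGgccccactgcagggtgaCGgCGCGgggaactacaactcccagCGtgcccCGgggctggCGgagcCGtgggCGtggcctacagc
Halr1 promoter, chr6:52102699-52102948: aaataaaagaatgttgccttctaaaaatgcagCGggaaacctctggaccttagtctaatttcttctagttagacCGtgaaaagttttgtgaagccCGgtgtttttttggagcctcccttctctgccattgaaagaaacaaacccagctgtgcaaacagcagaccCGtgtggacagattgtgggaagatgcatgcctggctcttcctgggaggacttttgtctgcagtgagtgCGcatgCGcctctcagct
The 4 promoters held 18 (Zfp775), 7 (Gpnmb), 11 (Cmas) and 6 (Halr1) CG. As many CG or more were found in 21.7%, 46.3%, 35.6% and 50.4% of all 32851 promoters in the table, whose median was 6. These counts describe the printed windows only.

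In every het and derived library the chromosome 6 genes were, on median, slightly higher than in the parental libraries relative to the genes of other chromosomes. The measure is the median log2 difference of the members from the parental mean, less the same median over the other chromosomes. For a parental library, that mean was taken over the other parental libraries of its state. The measure ran from -0.0076 to 0.0125 in the 3 parental mESC libraries and from 0.050 to 0.111 in the other 21. After ATRA it ran from -0.021 to 0.013 in the parental libraries and from 0.070 to 0.132 in the other 21. No het or derived library overlapped the parental range in either state. The size is small: a median log2 difference of 0.084, the mESC het value, is a fold of 1.06. With each library's trend on transcript GC content taken out, the 21 mESC libraries ran from 0.041 to 0.103, above a highest parental value of 0.00034. Without that correction, some derived libraries had another chromosome with a higher median than chromosome 6. In mESC A677T replicate 3, chromosome 13 was at 0.296 and chromosome 6 at 0.045. In the 3 mESC het libraries none was higher, the largest other median being 0.043.

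**Figure D1:**
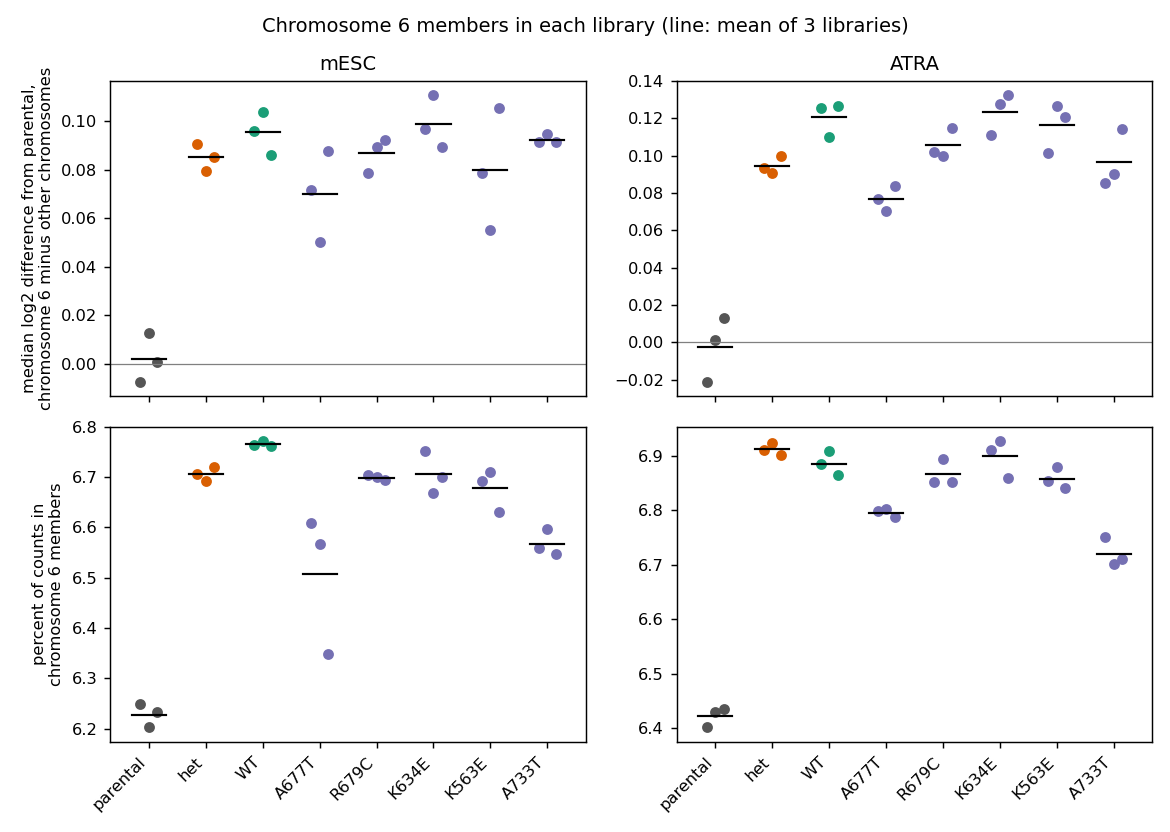
Top, median log2 difference of chromosome 6 members from the parental mean less the median over other chromosomes, and bottom, percent of assigned reads in the members, for each of the 48 libraries by line and state. For a parental library the mean is that of the other parental libraries. Points are libraries and lines the mean of 3; the 42 het and derived libraries lie above every parental library of their state in both measures.

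The members also took a larger share of all assigned reads. In mESC they held 6.23% ± 0.023 (SD, n = 3) of the counts in parental libraries and 6.71% in het, with 6.51% to 6.77% in the derived lines. The lowest non-parental library was A677T replicate 3 at 6.35%, still above the parental range of 6.2% to 6.25%. After ATRA the parental libraries were at 6.4% to 6.44%, het averaged 6.91%, and no het or derived library was under 6.7%. The share was also larger without the members that hold most reads. Without the 10 most abundant members, among them Gapdh, Slc2a3, Serbp1, Hnrnpa2b1 and Chd4, the mESC share was 4.48% ± 0.023 in parental and 4.81% ± 0.013 in het libraries (SD, n = 3). In bulk RNA such as this, more cells of a kind and more RNA per cell cannot be told apart.

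Against the other chromosomes, chromosome 6 had the highest median of all in mESC het (0.084), and the others ran from -0.022 on chromosome 11 to 0.022 on chromosome 14. After ATRA the het median was 0.090, and the other chromosomes ran from -0.029 to 0.027. All comparisons with the parental line use the same 3 parental libraries of their state, so the following values are not independent of each other or of the het values. The medians in mESC were 0.079 in WT, 0.075 in A677T, 0.078 in R679C, 0.093 in K634E, 0.054 in K563E and 0.106 in A733T. After ATRA they were 0.107 in WT, 0.069 in A677T, 0.084 in R679C, 0.102 in K634E, 0.093 in K563E and 0.105 in A733T. The medians of the other chromosomes also differed between the lines. In WT and A733T none had a higher median than chromosome 6 in either state. In A677T, 7 had a higher median in mESC, led by chromosome 13 at 0.17, and in K563E 5 did, led by the X chromosome at 0.151. With the GC trend removed, the number above chromosome 6 was 0 in 12 of the 14 comparisons and 2 in mESC K563E and in ATRA A677T. That correction also took the mESC K563E median to -0.0019 and the ATRA A677T median to 0.00037. The medians over the other chromosomes in these comparisons moved as well, from -0.014 to -0.059 and from -0.015 to -0.054.

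**Figure D2:**
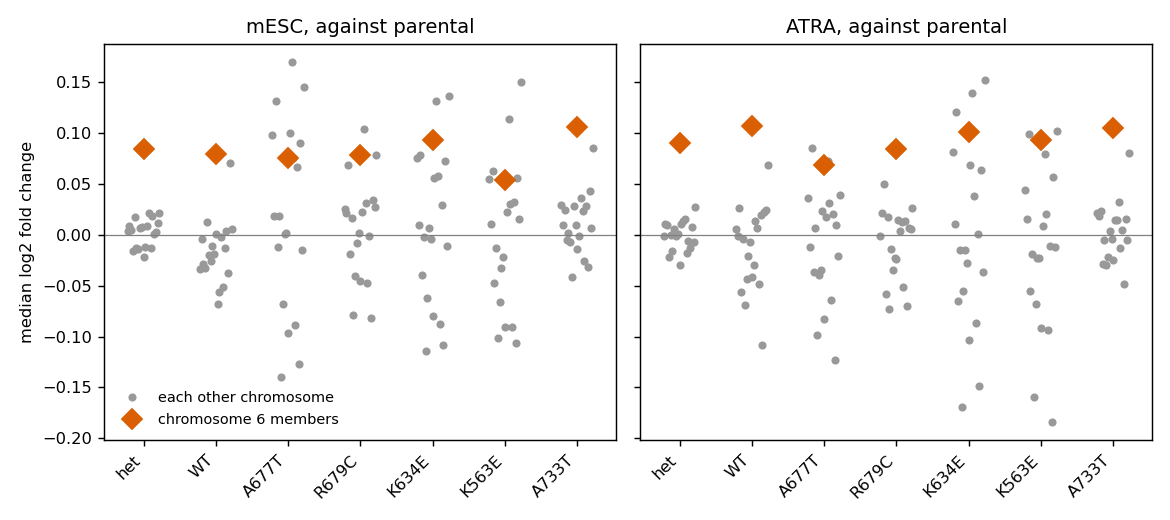
Median log2 fold change against the parental line of the tested genes of each chromosome, for the 7 lines in both states; diamonds are chromosome 6 members and grey points the other chromosomes. In het, chromosome 6 lies at 0.084 in mESC and 0.090 after ATRA, above the range of the others.

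A share of the members in each line passed the test on its own (edgeR quasi-likelihood, Benjamini-Hochberg adjusted over all tested genes). The filter on low counts left 760 members among 15830 genes in mESC and 774 among 17030 after ATRA. In mESC het, 25 members were called higher and 11 lower, beside 1.17% and 2.26% of all tested genes. After ATRA 59 were higher and 16 lower, beside 2.2% and 4.05%. These 4 counts are described only, since the chromosome was chosen on this contrast. With any 1 library left out, 20 to 26 members were called in mESC het and 34 to 53 after ATRA. Of the members called in mESC het 69.4% were higher, while on the other chromosomes 31.2% of the calls were. The lean was wider than the calls: 69.3% of the tested members had a value above 0 in mESC het and 70.0% after ATRA, and no other chromosome reached more than 56.4% and 55.1%.

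The derived lines had far more calls, on all chromosomes. In mESC, WT had 126 members higher and 75 lower (7.95% and 11.1% of all tested genes), and A733T 55 and 21 (3.3% and 4.62%). A677T had 221 and 177 (24.3% and 25.5%), R679C 214 and 140 (20.3% and 23.1%), K634E 222 and 128 (19.7% and 21.8%), and K563E 217 and 159 (23.5% and 26%). After ATRA, WT had 169 members higher and 95 lower (12.3% and 16.1%), and A733T 91 and 47 (7.67% and 7.89%). A677T had 193 and 145 (19.2% and 24.2%), R679C 206 and 130 (19.9% and 22.9%), K634E 242 and 137 (22.4% and 25.2%), and K563E 240 and 172 (23.3% and 28.4%). Read against those backgrounds, the shares of members called higher were 16.6% in mESC WT, 29.1% in mESC A677T and 28.6% in mESC K563E. They exceed the share over all genes, by the most in relative terms in WT and A733T, while the shares called lower (9.87%, 23.3% and 20.9%) are below it. The parental libraries are shared by all of these counts, so they do not stand as separate results for each line.

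Against het, in a comparison that does not use the parental libraries, the chromosome did not stand apart. The mean of the 6 derived lines had a member median of -0.007 in mESC and -0.013 after ATRA. In mESC 122 members were higher and 175 lower, beside 18.4% and 21.5% of all tested genes. After ATRA 132 were higher and 172 lower, beside 16.5% and 20.6%. The shares of members were 16.1% and 23.0% in mESC and 17.1% and 22.2% after ATRA, near the background.

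Along the chromosome the small excess in het was found in every 10 Mb window that could be read, though not in every smaller stretch. In 10 Mb windows with at least 10 tested members, all 15 had a median above 0 in het in both states. The lowest in mESC was 0.037 at 40 to 50 Mb, the window of Ezh2, with 53 genes, and the highest was 0.165 at 20 to 30 Mb, with 34. After ATRA the range was 0.034 (60 to 70 Mb, 14 genes) to 0.189 (100 to 110 Mb, 20 genes). On the other chromosomes 57.5% of 247 windows were above 0 in mESC het and 57.2% of 250 in het after ATRA. In mESC WT 14 of 15 windows were above 0, the exception being -0.098 at 0 to 10 Mb. In mESC A733T all 15 were, the lowest at 0.064. In the other variants in mESC, 12 of 15 were above 0 in A677T, with the lowest at -0.148, 13 in K563E and 14 in each of R679C and K634E. After ATRA all 15 were above 0 in WT, 14 in A733T and K634E, and 13 in A677T, R679C and K563E. With the GC correction the mESC counts fell to 8 in A677T, 9 in R679C and K563E and 12 in K634E, while those of het, WT and A733T stayed at 15, 14 and 15. After ATRA they fell to 9 in A677T, 11 in R679C, 12 in K563E and 13 in K634E. The share of windows above 0 on the other chromosomes fell too. In mESC it went from 66.8% to 37.2% in A677T and 61.5% to 35.6% in R679C. It went from 59.9% to 32.0% in K563E and 64.0% to 39.3% in K634E. After ATRA it went from 60% to 35.2% in A677T, 54.4% to 42.8% in R679C and 62.8% to 44.8% in K563E. In K634E it went from 65.2% to 53.6%. Without the correction it was 36.8% in mESC WT and 64.0% in mESC A733T. With 5 Mb windows 1 of 23 in mESC het was below 0, at -0.013 from 45 to 50 Mb, with 37 genes, and 1 of 24 after ATRA was, at -0.069 from 135 Mb.

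**Figure D3:**
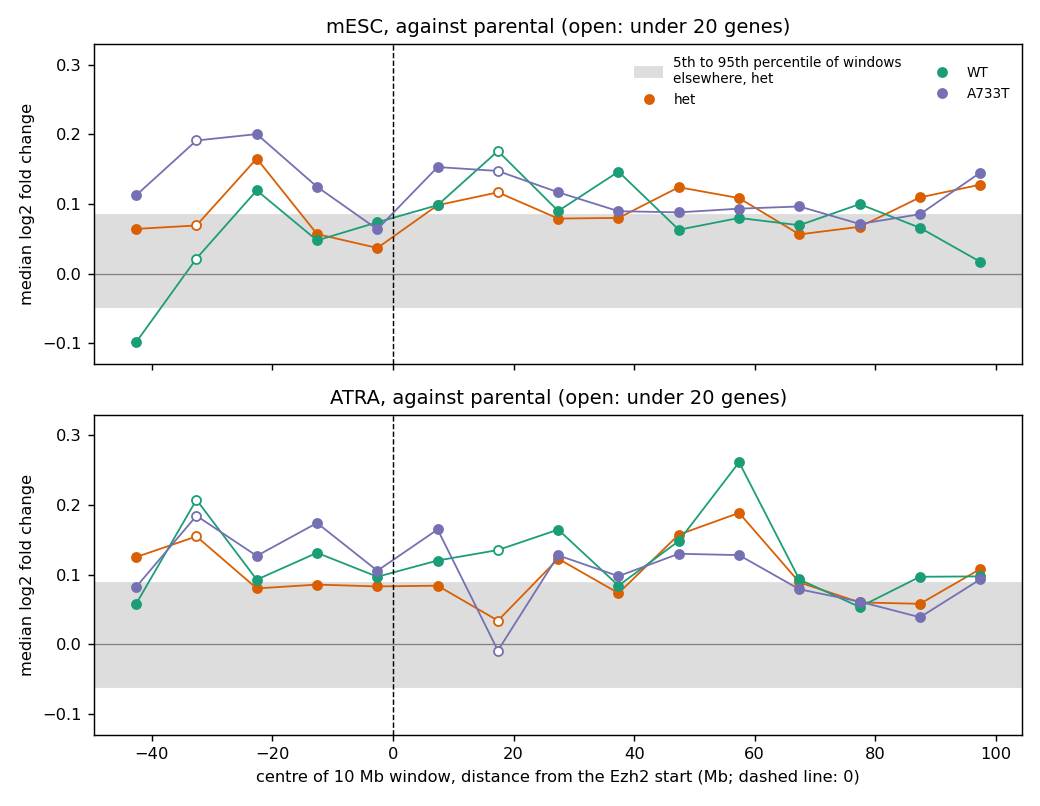
Median log2 fold change against the parental line of chromosome 6 members in 10 Mb windows, by distance of the window's centre from the Ezh2 start in Mb, for het, WT and A733T; open points have under 20 genes and the grey band is the 5th to 95th percentile of windows on other chromosomes in het. All 15 het windows lie above 0 in both states, and the mESC window that holds Ezh2 is the lowest of them at 0.037.

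By level, the share of members above 0 was highest in abundant genes, while the excess over other chromosomes was not confined to them. Among members in the highest of 3 equal classes of expression, 90.1% had a value above 0 in mESC het and 91.3% after ATRA, with medians of 0.099 and 0.120. In the lowest class, 53.0% and 49.6% did, where the other chromosomes had medians of -0.048 and -0.133. The member median less that of the other chromosomes was 0.089, 0.048 and 0.094 in the lowest, middle and highest level class in mESC het, and 0.129, 0.069 and 0.096 after ATRA. By GC content, the same difference was 0.084, 0.109 and 0.054 in the lowest, middle and highest of 3 GC classes in mESC het, and 0.080, 0.097 and 0.1 after ATRA. The members spread widely around these medians. The middle 50% of them lay between -0.035 and 0.192 in mESC het, and the median standard error of 1 gene was 0.129, larger than the median itself.

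Of the 15 genes that were each the most abundant tested member per kb of exon in their 10 Mb window, 13 were above 0 in het in each state. Only Trh, described below, was called in mESC het. The 14 not called in mESC het ran from -0.049 to 0.135, and after ATRA the 15, which were not called, ran from -0.035 to 0.454, the highest being Trh. Of these 15, Gapdh, the glycolytic glyceraldehyde-3-phosphate dehydrogenase, had a log2 difference in het of 0.13 (adjusted p = 0.453) in mESC and 0.20 (adjusted p = 0.127) after ATRA. Hnrnpa2b1, which binds RNA and takes part in splicing, had 0.08 in both states. Rybp, a subunit of Polycomb repressive complex 1, had 0.09 and 0.04, the ribosomal protein gene Rpl32 had 0.04 and 0.01, and Pdia4, a protein disulfide isomerase next to Ezh2, had 0.01 and 0.14.

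The genes next to Ezh2 had the lowest median of any distance class in mESC het. Within 2 Mb of the Ezh2 start, 36 members were tested in mESC and 37 after ATRA. Their median in het was -0.024 in mESC, with 47.2% above 0, and 0.071 after ATRA. From 2 to 10 Mb away the medians were 0.084 and 0.086, and beyond 60 Mb 0.096 and 0.074. In WT the near medians were 0.0033 and 0.052, and in A733T -0.024 and 0.022. Among the other variants in mESC, A677T had a near median of 0.134, above its 0.029 beyond 60 Mb, and R679C, K634E and K563E had -0.0094, 0.027 and 0.017. With the GC correction the mESC near medians kept their sign in het (-0.040), A677T (0.178) and R679C (-0.133). They changed sign in A733T (0.056), WT (-0.011), K634E (-0.056) and K563E (-0.112). The sign thus differed between lines and, in A733T, WT, K634E and K563E, with that correction. Among these near genes 0 were called higher and 3 lower (Repin1, Zfp775, Gpnmb) in mESC het, beside 1.17% and 2.26% of all tested genes. After ATRA 4 were higher (Cul1, Zfp467, Igf2bp3, Fam221a) and 2 lower (Repin1, AI854703), beside 2.2% and 4.05%. Of the 11 near genes with a Zfp name, most of which encode zinc finger proteins, 1 was called in het in mESC (Zfp775) and 1 after ATRA (Zfp467, 0.43).

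**Figure D4:**
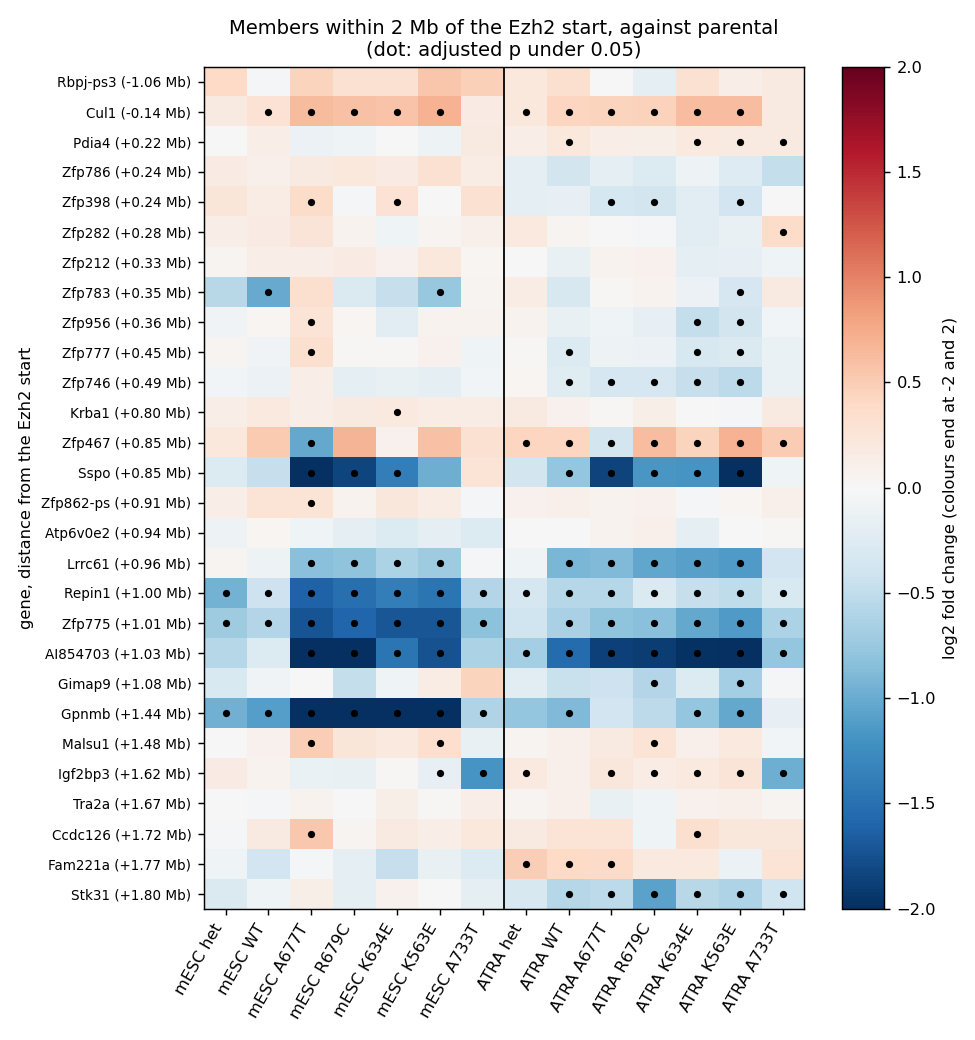
Log2 fold change against the parental line (colour, cut at -2 and 2) of members with gene names within 2 Mb of the Ezh2 start, in order of distance, for 7 lines in mESC and after ATRA; a dot marks an adjusted p under 0.05. Repin1, Zfp775 and Gpnmb, 0.999 to 1.441 Mb distal, are the 3 genes with a dot in mESC het, all lower.

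Repin1, which encodes a zinc finger protein (chr6:48593883-48599082), was at 17.4, 14.5 and 14.9 CPM in the parental mESC libraries and at 8.14, 8.17 and 8.0 CPM in het. All 3 het libraries were below all 3 parental ones. Repin1 fell by 0.95 in het on the log2 scale (SE 0.12, adjusted p = 1.384e-05). Its value was -0.42 in WT, -0.59 in A733T, -1.62 in A677T, -1.51 in R679C, -1.4 in K634E and -1.45 in K563E, each called. After ATRA it was at 25.4, 23.4 and 23.2 CPM in parental and at 18.7, 19.7 and 18.8 CPM in het libraries, and fell by 0.34 (SE 0.09, adjusted p = 0.0268).

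Zfp775, its distal neighbour (chr6:48602063-48623227) and another zinc finger gene, was at 13.7, 12.5 and 13.7 CPM in parental and 8.24, 8.08 and 8.13 CPM in het mESC libraries. It fell by 0.71 (SE 0.14, adjusted p = 0.00236). Among the derived lines the values were lower still in every variant, at -0.82 in A733T and between -1.59 in R679C and -1.73 in A677T in the other 4. WT was at -0.59. The promoter of Zfp775 is the most CG-rich of the 4 printed. GENCODE M21 also has the models Gm45021 and Gm44965, each of which overlaps both Repin1 and Zfp775 on the same strand, so the counts of these neighbours depend on how shared reads were assigned.

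Gpnmb, which encodes a transmembrane glycoprotein (chr6:49036546-49070929), was at 12.1, 14.4 and 12.6 CPM in parental and 6.56, 7.23 and 6.34 CPM in het mESC libraries. It fell by 0.96 in het (SE 0.13, adjusted p = 3.556e-05), and its value was -1.1 in WT and -0.6 in A733T, both called. In A677T, R679C, K634E and K563E all 12 libraries were between 0.839 and 2.43 CPM, and the log2 values were -3.22, -2.90, -2.52 and -3.45. After ATRA the gene was low in the parental line too, at 1.95 to 2.03 CPM, and the het value of -0.78 was not called (adjusted p = 0.0953).

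Cul1, the cullin scaffold of SCF ubiquitin ligases, lies on the other side of Ezh2 (chr6:47453398-47526139). It was at 330, 325 and 340 CPM in parental and 389, 384 and 380 CPM in het libraries after ATRA, a rise of 0.21 (SE 0.07, adjusted p = 0.0481). In mESC the het value was 0.18 (adjusted p = 0.256), with libraries at 253, 226 and 212 CPM against 197, 212 and 201 CPM. Cul1 rose in WT (0.30 in mESC and 0.42 after ATRA) and in A677T, R679C, K634E and K563E, with 0.56 to 0.69 in mESC. A733T had 0.16 and 0.18, neither called.

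Igf2bp3, an RNA-binding protein gene 1.62 Mb from Ezh2, was lower in A733T than in the parental line in both states. Its mESC libraries were at 68.9, 61.1 and 65.7 CPM in A733T and at 144, 153 and 148 CPM in parental, a log2 value of -1.19 (SE 0.07, adjusted p = 7.4e-13). After ATRA A733T was at -0.97, while het, A677T, R679C, K634E and K563E were called higher by 0.15 to 0.25. A733T was not tested directly against those lines. AI854703, the next gene after Zfp775, was at 4.85, 5.07 and 4.93 CPM in parental and 3.14, 3.12 and 2.99 CPM in het after ATRA, a log2 value of -0.68 (adjusted p = 0.0191), and its derived lines ran from -0.77 in A733T to -2.05 in K563E. The ATRA het calls of Cul1, Igf2bp3, AI854703 and Repin1 were each lost when any 1 of the 6 libraries was left out, and those of Cul1 and Igf2bp3 also with RLE size factors, while the mESC het calls of Repin1, Zfp775 and Gpnmb were not lost with any.

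Away from Ezh2, Halr1 and Trh were among the members that rose most in mESC het. Halr1 is a long noncoding RNA gene (chr6:52102949-52113684) beside the Hoxa cluster, which the membership rule left out. It was at 8.36, 9.92 and 9.81 CPM in parental and 17.0, 16.4 and 17.8 CPM in het mESC libraries, a rise of 0.87 (SE 0.09, adjusted p = 3.78e-07). The derived mESC lines lay further up, at 1.27 in WT and 1.48 to 1.74 in the variants other than A733T, which was at 0.52. After ATRA Halr1 was at 94.8 to 142 CPM over all lines. Het was then the only line called, at 0.29 (adjusted p = 0.0329), and that call was lost with any 1 library left out.

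Trh, which encodes thyrotropin-releasing hormone, was at 590, 494 and 462 CPM in parental, 957, 804 and 804 CPM in het and 272, 301 and 253 CPM in A733T mESC libraries. It rose by 0.73 in het (adjusted p = 0.00775; not called without parental replicate 3) and fell by 0.91 in A733T (adjusted p = 0.000683). Gadd45a, a stress-induced growth arrest gene, followed the same split in mESC, at 13.4 to 14.6 CPM in parental, 20.9 to 21.6 CPM in het and 9.97 to 11.6 CPM in A733T. Other named rises in mESC het were Acrbp, Txnrd3, Mxd1, Foxp1, Hmces and Adamts9, with log2 values of 0.43 (Adamts9) to 0.58 (Acrbp). The calls of Acrbp, Mxd1, Adamts9 and C1s1 were each lost with some library left out.

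The largest falls in mESC het were Slc4a5, Tmem40, Gpnmb, Repin1 and C1s1. Slc4a5, a sodium bicarbonate cotransporter gene (chr6:83219828-83304945), was at 8.27, 7.49 and 8.26 CPM in parental and 2.15, 2.83 and 2.24 CPM in het. It fell by 1.73 in mESC (SE 0.19, adjusted p = 1.14e-06) and had a value of -1.0 after ATRA, also called. Slc4a5 was at -1.06 in WT, -1.07 in A733T and -2.26 to -3.39 in the other variants in mESC. Tmem40, a transmembrane protein gene (chr6:115729131-115762410), was at 9.23, 7.94 and 8.37 CPM in parental and 2.97, 2.98 and 2.7 CPM in het, a log2 value of -1.57 (SE 0.15, adjusted p = 7.89e-08), and was at -1.7 after ATRA. Tmem40 was between -0.84 in WT and -1.67 in A677T in the derived mESC lines, and A733T was at -1.40.

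After ATRA the rises in het were led by Ptprz1 and Prmt8. Ptprz1, a receptor tyrosine phosphatase, was at 2.42, 1.76 and 2.54 CPM in parental and 5.11, 3.87 and 4.74 CPM in het libraries, a rise of 1.02 (SE 0.19, adjusted p = 0.00071). Ptprz1 rose further in the derived lines, by 1.74 in WT, 1.32 in A733T and 2.61 to 2.96 in the other variants. Prmt8, Lrrc4, Lrrn1, Frmd4b, A2m, Adamts9, Prickle2 and Pdzrn3 were also among the named rises, with log2 values of 0.54 (Pdzrn3) to 0.88 (Prmt8). The calls of Lrrc4, A2m, Prickle2 and Pdzrn3 were each lost with some library left out. Ccser1 had the largest fall, from 1.52, 1.40 and 1.27 CPM in parental to 0.251, 0.176 and 0.206 CPM in het, a log2 value of -2.67 (SE 0.40, adjusted p = 3.71e-05). These het levels rest on a handful of reads per library. Tead4, a transcription factor of the Hippo pathway, had -0.62 in het and -2.11 in R679C after ATRA, both called, the first not without parental replicate 2 or het replicate 1 or 2.

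**Figure D5:**
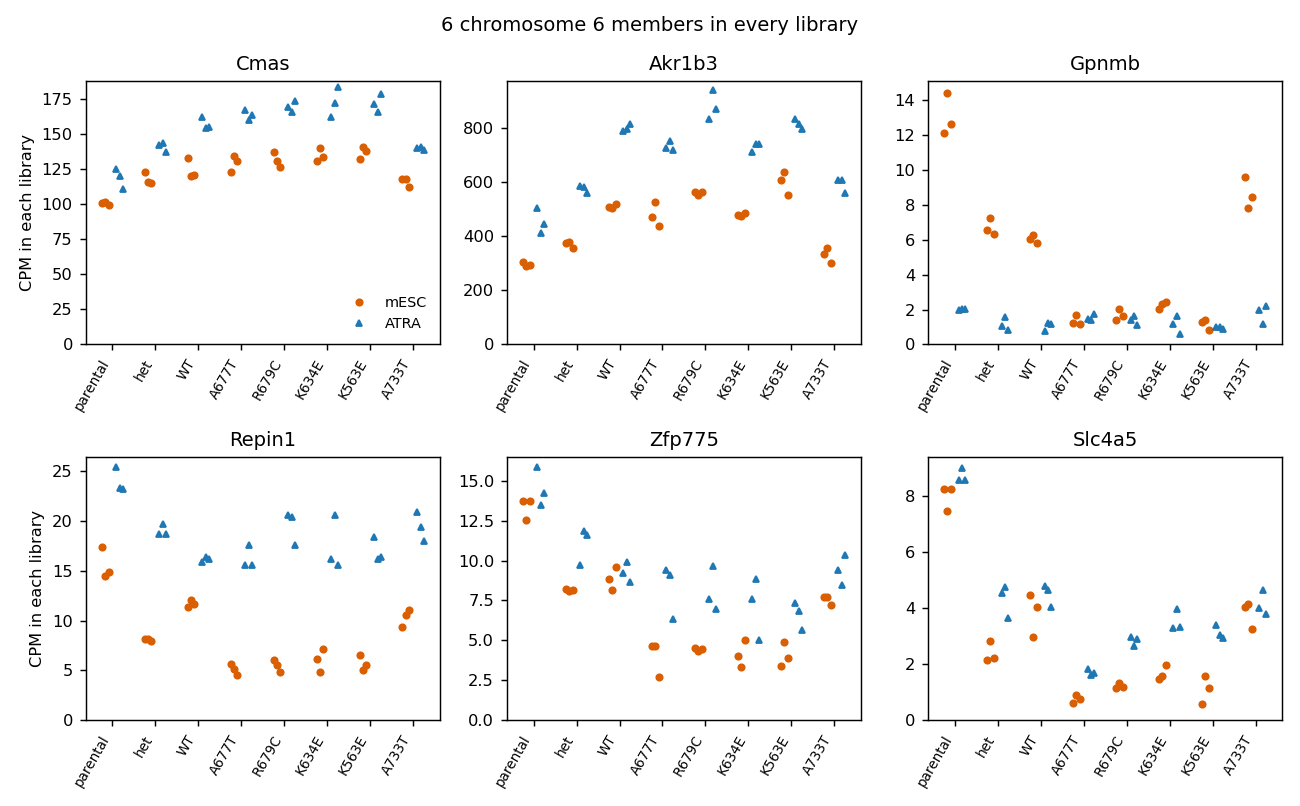
CPM in each of the 3 libraries per line for Cmas, Akr1b3, Gpnmb, Repin1, Zfp775 and Slc4a5, in mESC (circles) and after ATRA (triangles), on linear axes from 0. Gpnmb, Repin1, Zfp775 and Slc4a5 are lower in het than in parental mESC libraries, and Cmas lies above the parental libraries in every other line.

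Of the 36 members called in mESC het and the 75 called after ATRA, 18 were in both lists, which is 50% of the first and 24% of the second. On the other chromosomes 222 genes were in both lists, which is 43.9% of 506 and 22.8% of 972, so the shares of members were near those of other genes. In 17 of the 18 the direction was the same, higher for 12, and Gadd45a differed, at 0.62 in mESC and -0.25 after ATRA. On the other chromosomes the direction was the same for 219 of the 222 genes (98.6%). The ATRA call of Gadd45a was lost when any library but parental replicate 3 was left out, and with library sizes taken from the other chromosomes alone. Among the genes on the lists chosen for this chromosome, Foxp1, Gdf3, Akr1b3, Cmas and Ipo8 were called higher in both states.

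Cmas, the enzyme that activates sialic acid (chr6:142756686-142775714), lies near the far end of the chromosome. It was named because it was called in het, and its het values exceed the medians of members beyond 60 Mb (0.096 and 0.074). It was at 101, 102 and 99.4 CPM in parental and 123, 115 and 115 CPM in het mESC libraries, and at 125, 120 and 111 against 142, 144 and 137 CPM after ATRA. It rose by 0.23 in mESC (SE 0.06, adjusted p = 0.0201) and 0.25 after ATRA (SE 0.06, adjusted p = 0.00562), with values of 0.21 in A733T to 0.44 in K563E in the derived mESC lines, each called. The mESC het call was lost without any 1 of parental replicates 1, 2 and 3 and het replicate 1, and the ATRA call without parental replicate 3. Akr1b3, which encodes aldose reductase, rose by 0.32 in mESC het and 0.34 after ATRA, and by 0.78 in mESC WT. Gdf3, a ligand of the TGF-beta family, rose by 0.24 and 0.36 in het, and Ipo8, which imports proteins into the nucleus, by 0.30 and 0.23. Foxp1, a forkhead transcription factor, rose by 0.50 in mESC het and 0.24 after ATRA. Leaving out single libraries ended the calls of Gdf3 in mESC and of Ipo8 and Foxp1 after ATRA, and none of those of Akr1b3.

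The gene lists on the chromosome were chosen with earlier results of these data known. Their counts in het stand beside 1.17% of all tested genes called higher and 2.26% lower in mESC, and 2.2% and 4.05% after ATRA, in a contrast on which the chromosome was chosen. Of 38 tested members that serve protein and RNA machinery, 33 were above 0 in mESC het and 36 after ATRA, with a median of 0.075 in both states, and 1 was called higher in each. Of 23 chromatin and Polycomb factors, 19 and 21 were above 0, with medians of 0.076 and 0.104, 0 were called in mESC and 2 were called higher after ATRA. These medians are near those of all members, 0.084 and 0.090. The median of 19 tested developmental regulators was 0.019 in mESC het, with 1 called higher, and that of 20 after ATRA was 0.107, with 4 higher and 2 lower. Of 12 genes of the pluripotency region and stem cell list, 1 was higher in mESC het and 2 were higher and 1 lower after ATRA.

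Of 26 growth signalling and cell cycle genes, 2 were called higher in mESC het and 3 higher and 1 lower after ATRA, with medians of 0.082 and 0.127. Glycolysis and metabolism had 22 and 23 tested genes, 2 higher and 1 lower in mESC het and 3 higher and 1 lower after ATRA, with medians of 0.128 and 0.145. The list of the potassium channel pair and genes toward the distal end had 29 and 30 tested genes, 2 higher in mESC het and 5 higher and 1 lower after ATRA, with medians of 0.128 and 0.108. In the derived lines the machinery list had 15 of 38 called higher and 2 lower in mESC WT (7.95% and 11.1% of all tested genes), and 24 and 2 in mESC K563E (23.5% and 26%). In mESC A733T it had 0 of 38 called in either direction by edgeR (3.3% and 4.62%).

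The imprinted list, with 11 tested members in mESC and 13 after ATRA, had a median of -0.159 in mESC het with 1 called lower, Peg10. After ATRA its het median was 0.066, with 8 of 13 above 0 and 1 called higher. No difference from the other members was tested. Peg10, a paternally expressed gene derived from a retrotransposon, was at 52.4, 56.3 and 57.5 CPM in parental and 31.5, 34.9 and 35.1 CPM in het libraries, a log2 value of -0.71 (SE 0.08, adjusted p = 1.56e-06). Among the derived mESC lines, WT was at -0.07 and was not called, and the variants were higher by 0.39 in K634E to 0.95 in A677T. Against het, the derived lines together were higher by 1.2 in mESC (adjusted p = 7.13e-14) and 0.50 after ATRA. Mest, the other well-known paternally expressed gene here, was at 266, 220 and 235 CPM in parental and 265, 259 and 221 CPM in het libraries after ATRA (0.05, adjusted p = 0.835), and the derived lines ran from 0.81 in WT to 1.57 in K563E, all called.

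Evx1 and Scnn1a differed widely from parental mESC in several derived lines, and neither was called in A733T. Evx1, a homeobox gene at the end of the Hoxa cluster, was at 0.367, 0.256 and 0.107 CPM in parental mESC. These parental levels rest on few reads per library, and so do the differences from them. In K563E Evx1 was at 4.10, 4.35 and 3.25 CPM, a rise of 3.93 (SE 0.30, adjusted p = 3.28e-11). It rose by 3.30 in R679C, 2.78 in K634E and 1.54 in WT, and was at 0.77 in A677T and 0.64 in A733T, neither called. Foxi3, a forkhead transcription factor, rose in mESC by 1.95 in A677T, 1.45 in R679C, 1.07 in K634E and 1.75 in K563E. After ATRA Foxi3 was instead lower in WT and those 4 variants, from -0.61 in WT to -1.17 in K634E.

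Scnn1a, the alpha subunit of the epithelial sodium channel, had the lowest log2 values of any member named here in mESC. It was at 2.80, 2.30 and 2.79 CPM in parental, 1.95, 1.79 and 2.36 CPM in het and 0.0624 to 0.189 CPM in A677T. The A677T levels of Scnn1a rest on few reads per library. The log2 values were -4.28 in A677T, -4.30 in K563E, -3.77 in R679C, -2.80 in K634E and -1.79 in WT, and -0.55 in A733T (adjusted p = 0.184). Tead4 was at 93.6, 89.4 and 92.4 CPM in parental mESC, 0.02 in het, with -0.38 in WT and -0.97 to -1.41 in A677T, R679C, K634E and K563E, each called. Etv6, an ETS family repressor, was at 24.6, 26.2 and 26.3 CPM in parental and 35.6, 37.0 and 38.5 CPM in het after ATRA, and rose by 0.53 in het, 0.45 in A733T, 0.80 in WT and 1.25 to 1.43 in the other variants.

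Some members moved one way in A733T and the other way in the other variants, each against the same parental libraries. Emp1, an epithelial membrane protein gene, was at 31.0, 34.2 and 29.7 CPM in parental mESC, 67.4, 58.9 and 62.5 CPM in A733T and 10.1 to 15.8 CPM in A677T, R679C, K634E and K563E. It rose by 0.99 in A733T and ran from -1.09 to -1.55 in those variants, each called. Dppa3, an early embryonic gene known as Stella, was at 13.2, 13.8 and 14.9 CPM in parental mESC and rose by 0.85 in A733T, at 24.3, 25.9 and 25.5 CPM. It was at -1.32 in WT and -0.76 to -1.04 in the other variants, each called. Tlx2, a homeobox gene, and Irf5, an interferon regulatory factor, were higher by 1.02 and 1.03 in mESC A733T and lower in those 4 variants, at -1.86 to -2.67 (Tlx2) and -1.26 to -2.05 (Irf5). The difference between A733T and the other lines was not tested directly.

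Against het, the named rises of the derived lines after ATRA were Rassf4, Ptprz1 and Pdzrn3. Rassf4, a Ras-association domain gene, was at 2.60, 2.9 and 3.0 CPM in parental, 2.51, 2.77 and 2.27 CPM in het and 11.2, 10.8 and 13.2 CPM in K563E. The derived lines together were higher than het by 1.47 (adjusted p = 8.03e-11). Pdzrn3, a ubiquitin ligase gene, was higher by 1.26 and Ptprz1 by 1.34. Scnn1a, Emp1 and Il17rc were the named falls, Scnn1a at -1.91 and Emp1 at -1.26.

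The het effect itself differed between the states for few members. In a fit over all 48 libraries, 803 members were tested for the difference of the het effect after ATRA from that in mESC. Of these, 11 passed (1.37%), 7 higher and 4 lower after ATRA, beside 0.73% of all tested genes. The median difference over the members was 0.003. Ccser1 (-3.12), Gadd45a (-0.86) and Tead4 (-0.64) had the lowest values, and Peg10 (0.63), Flnc and Frmd4b (each 0.62) the highest among named genes.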

How the data were processed

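The values are gene counts in 1 deposited table, whole numbers of reads per gene as the authors deposited them. The submitters' processing notes name STAR 2.7.3a, featureCounts 1.6.4, cutadapt 3.2 and DESeq2 1.38.3 and the build mm10, in no stated order. No source used here gives the annotation release or strand setting. Per the labels' protocols, poly-T beads selected the RNA and random hexamers primed the cDNA.

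Of 54 columns, 48 matched a label and 6 did not, and these were not used. The Y728 line was not analysed here. Of 55401 identifiers, 55141 were found in GENCODE M21 without version and 260 were not. The members and all lists were chosen with earlier results of these data known.

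Each state was fitted apart with edgeR 4.0.16 (limma 3.58.1, R 4.3.3): filterByExpr, TMM, 1 mean per line over 24 libraries (16 residual df), robust quasi-likelihood test, Benjamini-Hochberg over all tested genes, called at an adjusted p of 0.05. The het-by-ATRA term came from 1 fit on 48 libraries (32 residual df). The fit was tested on simulated data. CPM uses TMM-normalised library sizes. The GC correction removes each library's smooth trend on transcript GC content.

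Named genes, predicted models aside, were those within 2 Mb of Ezh2, the most abundant per kb in each 10 Mb window, and the called members with the largest changes. For het these were 10 rises and 5 falls, and for each other comparison 3 of each, with at least 1 CPM in 1 group and no overlap of libraries. The overlap condition was dropped for the derived lines against het. List members called in both het comparisons in 1 direction were named too. Some results that this rule or the lists would give are not reported here. The 10 members with most reads were chosen after their values were seen. Replicate libraries of the same line differed by more than counting noise over the members in all 48 pairs (chi-square per degree of freedom 2.40 to 42.3), so none was merged.

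Same-numbered libraries were not treated as pairs: correlations of their deviations from the line means ran from -0.52 to 0.736 in mESC and -0.343 to 0.696 after ATRA over all lines, and from -0.14 to 0.135 and -0.062 to 0.294 between het and parental. Alternatives were DESeq2 1.42.0, size factors (RLE), TMM without chromosome 6, no filter, only the compared groups, a replicate block, GC correction, both together, a 200-count floor, protein-coding members, other windows and each library left out. Promoters came from RefSeq on GRCm38.p6.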

Additional observations from a re-analysis of the deposited data

Results flagged for a closer look

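For 9 named members the het effect after ATRA differed from that in mESC by the interaction test over 48 libraries (edgeR, adjusted over all tested genes). A positive value means a higher het effect after ATRA. Peg10 differed by 0.63 (adjusted p = 7.105e-05), since it was lower in het in mESC and near the parental level after ATRA. Repin1 differed by 0.61 (adjusted p = 0.0341), since its fall was larger in mESC. Flnc differed by 0.62 (adjusted p = 0.0306), Frmd4b by 0.62 (adjusted p = 0.00695) and Etv6 by 0.35 (adjusted p = 0.0379). Values below 0 were found for Gadd45a (-0.86, adjusted p = 4.74e-05), Halr1 (-0.58, adjusted p = 0.00615), Tead4 (-0.64, adjusted p = 0.0406) and Ccser1 (-3.12, adjusted p = 0.0342). Ccser1 was under 1 CPM in every undifferentiated library, and its mESC level rests on few reads. With 1 library left out, 4 to 9 members in all passed this test.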

How the results depend on the processing

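The medians of chromosome 6 above 0 in every line stayed above 0 under each alternative run, with 2 exceptions, both mESC K563E, at -0.0019 with the GC correction and -0.00045 with GC correction and replicate block. With the GC correction the median over the other chromosomes was -0.059 in mESC K563E and -0.054 in ATRA A677T. The near-zero mESC median of the derived lines against het turned to 0.0056 with a floor of 200 counts. The medians below are those that moved by more than the SD between libraries. With the GC correction, medians became WT 0.060, A677T 0.012, R679C 0.031, K634E 0.052, K563E -0.0019 and derived-het -0.036 in mESC, and het 0.074, WT 0.087, A677T 0.00037, R679C 0.059, K634E 0.067 and K563E 0.072 in ATRA. With the GC correction and replicate block, medians became WT 0.061, A677T 0.0050, R679C 0.029, K634E 0.053, K563E -0.00045 and derived-het -0.036 in mESC, and het 0.075, WT 0.083, A677T 0.00075, R679C 0.054, K634E 0.067 and K563E 0.067 in ATRA. With DESeq2, medians became A677T 0.035, R679C 0.057, K634E 0.073, K563E 0.030 and derived-het -0.032 in mESC, and A677T 0.057 in ATRA. With RLE size factors, medians became A677T 0.082 and K563E 0.110 in ATRA. With a floor of 200 counts, medians became A677T 0.09984, R679C 0.098, K634E 0.107, K563E 0.096, A733T 0.093 and derived-het 0.0056 in mESC, and A677T 0.079 in ATRA. With no filter, medians became A677T 0.031, R679C 0.061, K634E 0.073, K563E 0.029, A733T 0.095 and derived-het -0.044 in mESC, and WT 0.097, A677T 0.046, K634E 0.077, K563E 0.061, A733T 0.085 and derived-het -0.033 in ATRA. With only the compared groups in the fit, medians became WT 0.123, A677T 0.083 and R679C 0.09998 in ATRA. With protein-coding members only, medians became A677T 0.053, R679C 0.064, K634E 0.079 and A733T 0.093 in mESC, and A677T 0.055, R679C 0.101 and K563E 0.068 in ATRA. With the median of the other chromosomes taken away (chosen after seeing the data), medians became WT 0.128, A677T 0.084, K634E 0.119 and K563E 0.117 in ATRA.

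Counts of calls moved by over 1.5 times in few comparisons. With the GC correction the calls were het 66 and A733T 137 in mESC, and het 116 and A733T 219 in ATRA. With the GC correction and replicate block the calls were het 81 and A733T 149 in mESC, and het 139 and A733T 243 in ATRA. With only the compared groups in the fit the calls were het 56 in mESC, and het 115 in ATRA. In mESC A733T, 83.2% of the calls were higher with the GC correction, where 72.4% were without it. With no filter 7 members passed for the het-by-ATRA term, 42.9% of them higher. In mESC R679C, 60% of the windows were above 0 with the GC correction, beside 35.6% of those on other chromosomes. Without the filter, the het calls of Repin1, Zfp467, Fam221a, Igf2bp3, Gadd45a and Lrrc4 after ATRA and of Cmas and Gdf3 in mESC were lost. The cause of these shifts was not tested.

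With 1 library left out at a time, medians ranged in mESC 0.071 to 0.089 (het), 0.056 to 0.108 (WT), 0.045 to 0.083 (A677T), 0.080 to 0.105 (K634E), 0.032 to 0.063 (K563E), 0.091 to 0.105 (A733T) and -0.025 to -0.0084 (derived-het), and in ATRA 0.088 to 0.103 (het), 0.094 to 0.119 (WT), 0.052 to 0.079 (A677T), 0.053 to 0.104 (R679C), 0.107 to 0.125 (K634E) and 0.070 to 0.102 (K563E). Calls ranged in mESC 20 to 26 (het) and 48 to 67 (A733T), and in ATRA 34 to 53 (het) and 90 to 119 (A733T), and from 4 to 9 for the het-by-ATRA term. Fewer libraries were fitted in each. The mESC het count was over 1.5 times lower without parental replicate 1 or 3 or het replicate 2, the ATRA het count without any of the 6 but parental replicate 1, the mESC A733T count without parental or A733T replicate 1 or 3, and the ATRA A733T count without parental replicate 2. The median moved by over 1.5 times without replicate 3 of A677T or of K563E in mESC, and without replicate 3 of R679C after ATRA. The het-by-ATRA count was lowest without mESC parental replicate 1.

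Same-numbered libraries did not all deviate together. The replicate block alone changed no call count by over 1.5 times: it gave 42 calls in mESC het and 110 in ATRA het, with medians of 0.086 and 0.090.

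The median standard error of a member in het was 0.129 in mESC and 0.121 after ATRA, larger than the median difference, and takes in the spread between libraries as well as depth.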

Other observations

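Marker lists of other cell types differed between the lines, and their part in the chromosome 6 values was not tested. The 4 primitive endoderm markers (Gata6, Gata4, Sox17, Pdgfra) summed to 4.59 to 5.74 CPM in parental and 2.17 to 2.56 CPM in het mESC libraries, with 3 of the 4 under 1 CPM in every mESC library. After ATRA they summed to 97.8 to 112 CPM in parental and 90.8 to 105 CPM in het libraries. The 4 trophoblast markers (Cdx2, Elf5, Krt8, Tfap2c) summed to 69.8 to 79.9 CPM in parental and 65.3 to 73.6 CPM in het mESC libraries, and to 50.7 to 54.6 CPM against 32.2 to 35.0 CPM after ATRA. The 6 fibroblast markers (Col1a1, Col1a2, Col3a1, Thy1, Postn, Dcn) summed to 2.89 to 4.22 CPM in parental and 1.383 to 2.073 CPM in het mESC libraries, with 4 of the 6 under 1 CPM in every mESC library. After ATRA these summed to 5.17 to 5.71 CPM in parental and 3.52 to 3.71 CPM in het libraries. Over all lines the libraries after ATRA ran from 2.57 CPM in A677T to 13.6 CPM in A733T for the fibroblast markers, from 29.7 CPM in K634E to 93.7 CPM in A733T for the trophoblast markers and from 63.3 CPM in R679C to 156 CPM in WT for the primitive endoderm markers. In mESC the lowest and highest libraries were at 0.182 CPM in A677T and 4.99 CPM in A733T (fibroblast), 48.99 CPM in WT and 79.9 CPM in parental (trophoblast) and 0.982 CPM in K634E and 6.14 CPM in A733T (primitive endoderm).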
